A study of Mus musculus with 30 samples.

Results

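The genes described here are 10 that carry the MHC class I pathway of antigen presentation: H2-K1, H2-D1, B2m, Tap1, Tap2, Tapbp, Psmb8, Psmb9, Psmb10 and Nlrc5. They were chosen by name for their place in the pathway, not by any measured value, and all 10 were found among the 45706 genes of the deposited tables and passed the filter on low values described below. RNA sequencing was done on mouse osteoclasts, the bone-resorbing cells that macrophages form by fusing. All groups shared the C57BL/6J background and one protocol: bone marrow-derived macrophages were grown on bone slices in α-MEM with serum, 25 ng/ml MCSF and 100 ng/ml RANKL, and osteoclasts were collected either after 2 days or once large multinucleated cells were seen. The study asked how gene expression of osteoclasts on bone slices differs with age and with loss of Terc, the RNA template of telomerase.

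There were 10 groups of 3 libraries each. The large-cell stage was sampled from Terc-/- mice aged 1 month and 6 months and from wild-type (WT) mice aged 1, 6 and 20 months. The 2-day stage was sampled from WT mice aged 6 and 20 months, and no Terc-/- group was at 20 months. A further 3 groups had the large-cell label and a mark in their titles that the labels do not explain: 519 for 3 Terc-/- libraries at 1 month and 3 at 6 months, and gaiwei for 3 WT libraries at 1 month. The sources used here do not give the breeding generation of the Terc-/- mice, whose telomeres shorten over generations, nor the sex of any animal. Whether libraries that share a group came from different animals or culture wells is not stated, so the p-values speak only for the scatter among these libraries, part or all of which may be technical.

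MHC class I molecules show short peptides from a cell's own proteins on its surface, where CD8 T cells and natural killer cells read them. H2-K1 and H2-D1 encode classical heavy chains of the C57BL/6 mouse, and B2m encodes beta-2 microglobulin, the light chain without which heavy chains do not stay at the surface. Peptides are cut by the proteasome, whose standard catalytic subunits Psmb5, Psmb6 and Psmb7 can be replaced by the inducible immunoproteasome subunits Psmb8, Psmb9 and Psmb10. Tap1 and Tap2 form the transporter that moves peptides into the endoplasmic reticulum, where tapasin, encoded by Tapbp, holds empty class I molecules beside it for loading. Nlrc5 encodes the transactivator of class I genes, and interferons, above all interferon gamma, induce most of the pathway. Macrophages express class I constitutively, as nearly all nucleated cells do.

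Of the 10 genes, 7 lie on chromosome 17, within or beside the MHC. In mouse build GRCm38 with GENCODE M21 genes, H2-K1 spans chr17:33996017-34000347 on the minus strand and H2-D1 chr17:35262730-35267499 on the plus strand. Tapbp lies at chr17:33915899-33929292, Psmb9 at chr17:34181987-34187764, Tap1 at chr17:34187553-34197225, Psmb8 at chr17:34197721-34201454 and Tap2 at chr17:34203527-34216321. B2m lies at chr2:122147686-122153083, Psmb10 at chr8:105935735-105938444 and Nlrc5 at chr8:94434356-94527272. H2-K1 and H2-D1 are close copies of each other and of the Q and T region class I genes, so reads may have been split among them and the level of each is uncertain. Tap1 and Psmb9 run in opposite directions and their gene models overlap by 212 bases, and Tapbp overlaps its same-strand neighbour Zbtb22 (at most 32.6 TPM) by 3422 bases. No source used here states whether counting was stranded, so values of these overlapping genes are uncertain to that extent.

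Promoters are shown for the heavy chains, the light chain and Tap1, because class I promoters are known for a shared group of short motifs and all 4 genes were called higher in large cells at 6 months below. Each window runs 5′ to 3′ on the gene's own strand, from 250 bases before to 50 bases after the RefSeq start in GRCm38.p6. Capitals mark matches, on either strand, to GGGGATTCC (the kappaB site of class I enhancers), a pair of GAAA with any 2 bases between them (the core of the interferon response element), TGACG (part of the X2 element) and CCAAT (the Y element or CCAAT box). Windows of this kind were found for 8 of the 10 genes.
H2-K1, chr17:34000298-34000597, minus strand: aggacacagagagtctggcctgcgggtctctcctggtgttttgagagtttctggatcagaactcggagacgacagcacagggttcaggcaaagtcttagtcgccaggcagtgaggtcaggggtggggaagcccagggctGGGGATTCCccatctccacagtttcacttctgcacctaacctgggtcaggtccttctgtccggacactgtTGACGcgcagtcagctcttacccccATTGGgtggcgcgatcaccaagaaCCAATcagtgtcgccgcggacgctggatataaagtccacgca
H2-D1, chr17:35262844-35263143, plus strand: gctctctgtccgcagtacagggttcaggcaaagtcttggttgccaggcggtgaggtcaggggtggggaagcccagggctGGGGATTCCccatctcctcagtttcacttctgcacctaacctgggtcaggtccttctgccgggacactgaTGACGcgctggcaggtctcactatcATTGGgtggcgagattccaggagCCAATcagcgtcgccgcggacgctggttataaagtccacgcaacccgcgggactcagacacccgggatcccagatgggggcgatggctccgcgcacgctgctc
B2m, chr2:122147437-122147736, plus strand: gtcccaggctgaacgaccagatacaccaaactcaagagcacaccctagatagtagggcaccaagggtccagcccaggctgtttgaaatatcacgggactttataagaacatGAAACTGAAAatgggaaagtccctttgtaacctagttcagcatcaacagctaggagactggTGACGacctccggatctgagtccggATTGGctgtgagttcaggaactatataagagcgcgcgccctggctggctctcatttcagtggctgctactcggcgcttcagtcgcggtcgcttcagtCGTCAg
Tap1, chr17:34187306-34187605, plus strand: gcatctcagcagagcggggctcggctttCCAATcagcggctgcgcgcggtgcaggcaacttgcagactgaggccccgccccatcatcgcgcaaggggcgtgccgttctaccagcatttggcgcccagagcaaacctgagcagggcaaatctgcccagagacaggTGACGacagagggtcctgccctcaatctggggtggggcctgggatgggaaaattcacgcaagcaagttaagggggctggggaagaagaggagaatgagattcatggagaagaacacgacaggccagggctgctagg

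The kappaB letters were found in the windows of H2-K1 and H2-D1 and in no other gene of the 8, against 0.25% of 32851 RefSeq windows of the same length. In both heavy chain promoters the kappaB match began 70 bases before the TGACG match. In H2-K1, H2-D1 and B2m alike, TGACG began 25 bases before ATTGG, which is CCAAT on the other strand. TGACG was in 5 of the 8 windows (H2-K1, H2-D1, B2m, Tap1 and Psmb9) against 20.8% of all windows, and CCAAT in 6 of the 8 against 37.4%. The interferon response core, in the strict spelling given above, was found only in the window of B2m (3.44% of all windows). Looser spellings of this element were not searched for, so a window without a match is not shown to lack one. The windows of Tap1 and Psmb9 share 275 bases, since these divergent genes start close together, so their matches are not separate observations. A match describes these letters only and is not a shown binding site.

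Levels were deposited as TPM, a length-corrected share of all transcripts in a library that carries no read depth. For comparisons each library's TPM were divided by a trimmed-mean factor so that most genes agree between libraries, and these values are called scaled TPM below. Differences are log2 differences of (scaled TPM + 1) ± standard error from limma, fitted over the 12614 genes that averaged 1 TPM or more, and were called at a Benjamini-Hochberg adjusted p of 0.05 over all these genes, with 3 libraries per group throughout. With 3 against 3 libraries, an exact permutation test of 1 gene cannot go below p = 0.1, so calls rest on the spread shared over all 30 libraries. Shares of all genes called are given for this fit only, and counts from any other fit stand without such a share.

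Several features of the libraries bear on the results. Markers of osteoclasts (10 genes, among them Acp5, Ctsk and Calcr) summed to 4589 to 27917 TPM in the unmarked large-cell groups, to 670 to 2153 TPM in the 519 and gaiwei groups and to 315 to 773 TPM at 2 days. The marked libraries thus go against their large-cell label, since their osteoclast markers lay closer to the 2-day level. They also held 1199 to 3295 TPM of 8 neutrophil markers, against 2.99 to 202.5 TPM in the unmarked large-cell libraries. Nearly all of this was S100a8, with means of 1315 (519, 1 month), 2020 (519, 6 months) and 2115 TPM (gaiwei). In these groups the next highest mean was 6.00 TPM, for Camp in gaiwei libraries, and Elane was at 0. The sum therefore does not show that neutrophils were present. T and NK cell markers were low, with none of 8 reaching a mean of 1 TPM over all 30 libraries. Among them Cd4 had the highest group mean at 2.78 TPM in the 20-month 2-day group, and Gzma was listed at 0 in all libraries of every group. Terc was above 0 in only 3 of 18 WT libraries and in none of the 12 Terc-/- libraries, so it does not check the labels. The unmarked 1-month WT libraries had 46.6 to 84.1 TPM of Xist, which only female cells make, against 0 to 0.254 TPM for the remaining 27, so every comparison with that group also compares a female with a male pattern of expression. Library 2 of the 6-month WT large-cell group was the least like its replicates, correlating with them at 0.910 on average, while the other 29 libraries did so at 0.933 to 0.990. In such bulk samples, fewer cells of a type and less RNA per cell cannot be told apart.

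Beta-2 microglobulin and the heavy chains were the most abundant of the 10 genes, and Tap1, Nlrc5 and Psmb9 the least abundant. B2m had a median of 3125 TPM over the 30 libraries (range 1995 to 3894), H2-D1 871 TPM (307 to 1496) and H2-K1 653 TPM (234 to 861). Tapbp had a median of 123 TPM (66.1 to 225) and Psmb8 of 112 TPM (48.9 to 160.0). Psmb10 had a median of 36.8 TPM (21.2 to 73.6), Tap2 of 21.2 TPM (12.4 to 44.2) and Psmb9 of 13.7 TPM (4.07 to 23.6). Nlrc5 had 12.6 TPM (7.26 to 19.6) and Tap1 10.4 TPM (5.02 to 23.2), so the light chain lay far above every other gene of the pathway in each library.

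In scaled TPM, the 2-day WT group at 6 months had the lowest mean of the 10 groups for every one of the 10 genes. The highest mean was in the 519-marked 1-month Terc-/- group for H2-K1, H2-D1, Tapbp, Psmb8, Psmb9 and Psmb10, in the gaiwei-marked WT group for B2m and Nlrc5, and in the unmarked 1-month Terc-/- group for Tap1 and Tap2. The highest group mean exceeded the lowest by 5.98-fold for Psmb9, 5.37-fold for H2-K1, 5.34-fold for H2-D1 and 4.58-fold for Psmb8. It did so by 3.61-fold for Tapbp, 3.58-fold for Tap2, 3.39-fold for Tap1, 3.38-fold for Psmb10, 3.29-fold for B2m and 3.02-fold for Nlrc5. Neighbouring groups in this order mostly overlapped: of 9 neighbouring pairs, 5 did not overlap for H2-D1 and B2m, 3 for H2-K1, Psmb8 and Psmb9, and 2 for Tap1, Tap2, Tapbp, Psmb10 and Nlrc5. For H2-K1 the breaks lay between the unmarked 6-month Terc-/- group (747.8 ± 25.4 scaled TPM) and the 6-month WT large-cell group (489 ± 132), and on both sides of the 20-month 2-day group (337 ± 16.0), with the 6-month 2-day group last (204 ± 16.7; all SD, n = 3). On TPM as deposited, without scaling, the highest mean was in the unmarked 1-month Terc-/- group for H2-D1, Tapbp and Psmb9. It was in the 6-month WT large-cell group for Psmb10 and in the 20-month WT large-cell group for Tap1.

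**Figure D1:**
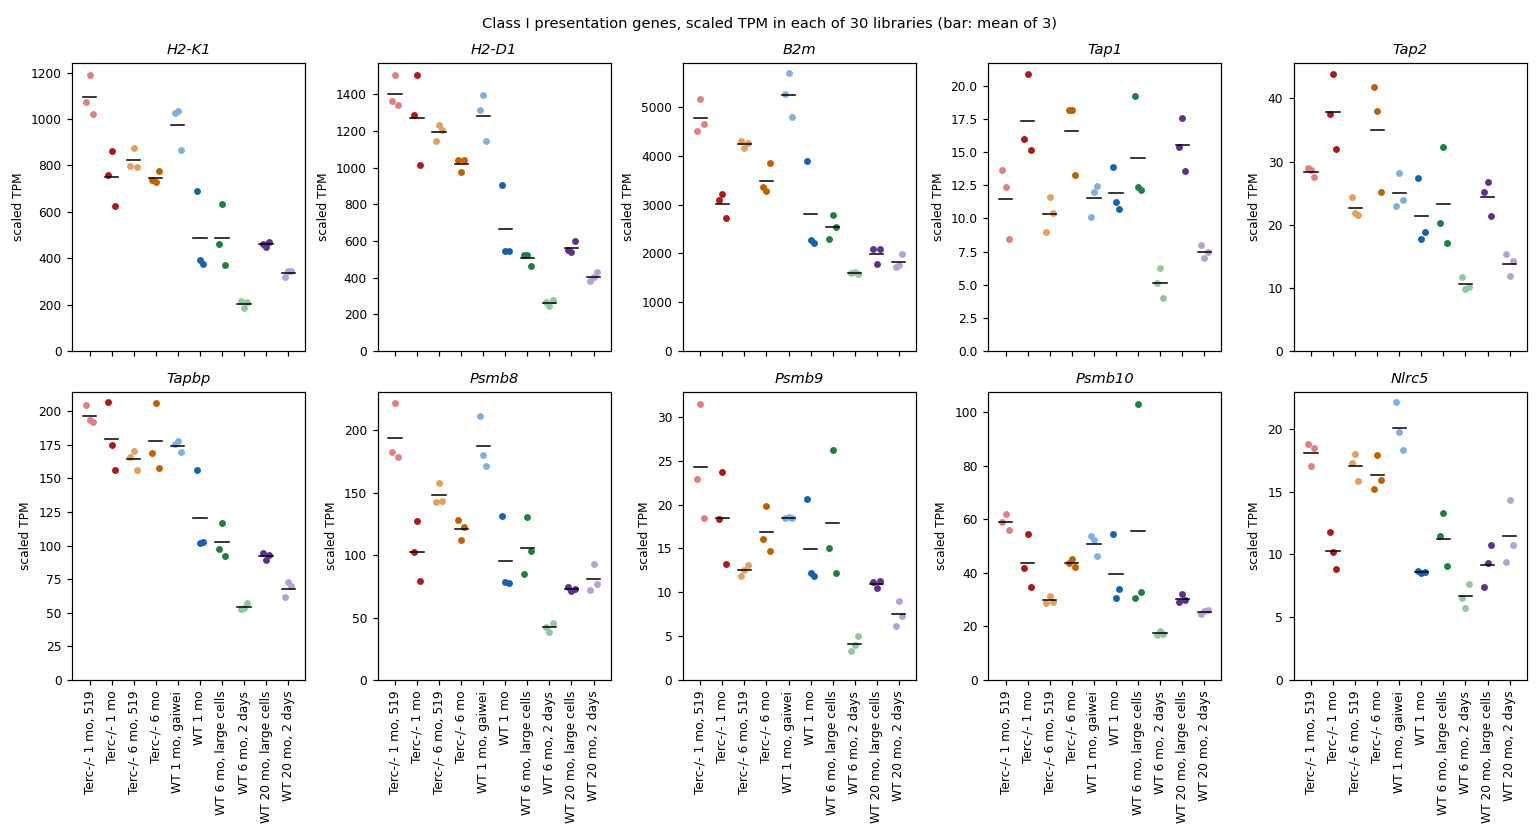
Scaled TPM (linear axis from 0) of the 10 class I presentation genes, 1 panel per gene; points are libraries, and the bar is the mean of the 3 libraries of a group, with Terc-/- groups at the left and WT groups at the right. The 2-day WT group at 6 months is lowest in every panel, and library 2 of the 6-month WT large-cell group stands out for Psmb10 at 103 scaled TPM.

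The first comparison asked how the pathway differs between large multinucleated osteoclasts and 2-day cultures of WT mice. At 6 months all 10 genes were higher in large cells, with 10 of 10 called, where 24.6% of all genes tested were called higher. Their median difference was 1.12, against -0.02 over all genes.

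Among heavy and light chains, H2-K1 had 463, 632 and 372 scaled TPM in large cells, against 216, 185 and 212 at 2 days. Every large-cell library was above every 2-day library, and the difference was 1.23 ± 0.18 (adjusted p = 1.05e-05). H2-D1 had 526, 525 and 462 scaled TPM in large cells, against 268, 243 and 276 at 2 days, a difference of 0.94 ± 0.15 (adjusted p = 3.17e-05). B2m, already very abundant, had 2294, 2798 and 2548 scaled TPM in large cells, against 1599.9, 1616 and 1586 at 2 days, and its difference of 0.66 ± 0.16 (adjusted p = 0.00144) was the smallest of the 10. The chains thus rose together, the heavy chains by 2.34-fold and 1.92-fold and the light chain by 1.59-fold.

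Of the peptide loading genes, Tap1 had 19.3, 12.4 and 12.1 scaled TPM in large cells, against 5.11, 6.25 and 3.99 at 2 days, a difference of 1.34 ± 0.19 (adjusted p = 5.14e-06). Its partner Tap2 had 20.2, 32.3 and 17.2 scaled TPM in large cells, against 11.8, 9.82 and 10.1 at 2 days, a difference of 1.02 ± 0.19 (adjusted p = 0.000188). Both chains of the transporter were therefore higher, with no overlap of the groups. Tapbp had 97.8, 117 and 92.3 scaled TPM in large cells, against 52.8, 53.9 and 57.0 at 2 days, a difference of 0.89 ± 0.13 (adjusted p = 1.29e-05).

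The immunoproteasome held the gene that rose most. Psmb9 had 15.1, 26.3 and 12.2 scaled TPM in large cells, against 3.25, 3.95 and 4.96 at 2 days, a difference of 1.84 ± 0.24 (adjusted p = 1.78e-06), or 3.59-fold. Psmb8 had 84.5, 130.2 and 103 scaled TPM in large cells, against 42.5, 38.7 and 45.9 at 2 days, a difference of 1.29 ± 0.18 (adjusted p = 4.85e-06). The 3 large-cell libraries were well apart from the 2-day ones for both genes. Psmb10 had 30.7, 103 and 33.1 scaled TPM in large cells, against 16.9, 18.3 and 17.2 at 2 days, so its difference of 1.39 ± 0.27 (adjusted p = 0.000255) leaned on library 2, though the call did not depend on it. Nlrc5, the transactivator, had 11.5, 13.3 and 9.05 scaled TPM in large cells, against 6.55, 5.75 and 7.67 at 2 days, a difference of 0.67 ± 0.15 (adjusted p = 0.000829).

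The whole set was called with each library left out in turn. On TPM as deposited, without scaling, 9 of the 10 were called and Nlrc5 was not (0.32), and the median of all genes then moved to -0.36, because the large-cell libraries have other trimmed-mean factors than the 2-day ones. Osteoclast markers rose in 10 of 10 between these groups and stromal markers summed to 662 to 1155 TPM in large cells, against 1736 to 2099 TPM at 2 days. The sum of 8 macrophage markers was 19791 to 28465 TPM in large cells, against 19565 to 22362 TPM at 2 days. The 8 B cell markers summed to 8.09 to 11.5 TPM in large cells, against 2.71 to 6.98 TPM at 2 days. The part of these cell types in the result was not tested.

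At 20 months the same step gave a narrower change. Of the 10 genes 4 were called higher and none lower, where 18.7% of all genes were called higher, and the median difference was 0.44, against 0.00 over all genes. Those called were H2-D1 and the 3 loading genes.

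Tap1 had 15.4, 17.6 and 13.5 scaled TPM in large cells at 20 months, against 7.97, 7.01 and 7.46 at 2 days, a difference of 0.96 ± 0.19 (adjusted p = 0.000271). Tap2 had 25.2, 26.8 and 21.4 scaled TPM in large cells, against 15.3, 11.9 and 14.3 at 2 days, a difference of 0.78 ± 0.19 (adjusted p = 0.00271). For both transporter genes the groups were apart. Tapbp had 94.2, 89.4 and 93.2 scaled TPM in large cells, against 61.8, 72.7 and 69.6 at 2 days, a difference of 0.44 ± 0.13 (adjusted p = 0.0126). H2-D1 had 552, 542 and 597 scaled TPM in large cells, against 382, 403 and 430.2 at 2 days, a difference of 0.48 ± 0.15 (adjusted p = 0.0167). H2-K1 had 462, 447 and 472 scaled TPM in large cells, against 318, 345 and 347 at 2 days. These groups did not overlap either, but the difference of 0.45 ± 0.18 missed the threshold (adjusted p = 0.056).

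The immunoproteasome genes, the light chain and Nlrc5 were not called at 20 months. Psmb8 had 74.1, 71.3 and 72.6 scaled TPM in large cells, against 72.4, 93.1 and 76.9 at 2 days, a difference of -0.14 ± 0.18 (adjusted p = 0.58), with overlapping groups. Nlrc5 had 7.38, 9.34 and 10.8 scaled TPM in large cells, against 9.41, 14.3 and 10.8 at 2 days (-0.29 ± 0.15, adjusted p = 0.131). Neither showed the higher large-cell level seen at 6 months. B2m differed by 0.12 ± 0.16 (adjusted p = 0.588), or by 0.00 with its sign turned on TPM as deposited, Psmb9 by 0.51 ± 0.24 (adjusted p = 0.102) and Psmb10 by 0.24 ± 0.27 (adjusted p = 0.527).

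Without 2-day library 2, 2 of the 10 were called, since H2-D1 (0.43, adjusted p = 0.0634) and Tapbp (0.37, adjusted p = 0.0669) were lost, and without large-cell library 4 H2-D1 was lost (0.43, adjusted p = 0.0607). Unscaled TPM also gave 4 calls, H2-K1 (0.33, adjusted p = 0.0385) taking the place of Tapbp (0.32, adjusted p = 0.0577). With only these groups in the fit 7 were called, all higher, and with one variance per group 6 higher and 1 lower. Stromal markers summed to 3444 to 4376 TPM in large cells, against 705 to 926 TPM at 2 days, with 4 of 6 tested called higher. B cell markers summed to 4.31 to 9.58 TPM in large cells, against 85.0 to 110 TPM at 2 days, and macrophage markers to 15507 to 23195 TPM, against 32929 to 37816 TPM. Their part in the result was not tested.

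**Figure D2:**
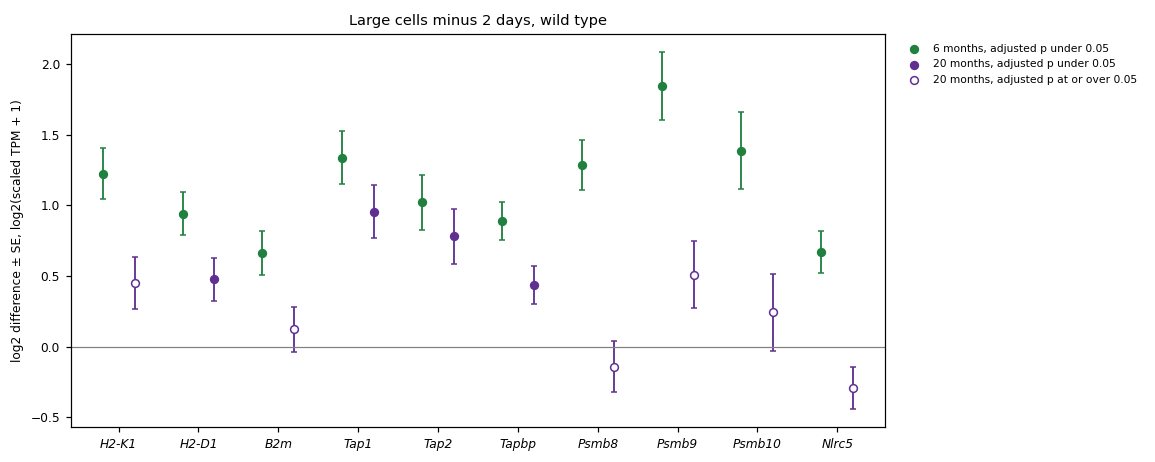
Log2 difference (± standard error, n = 3 libraries per group) of the 10 genes between large cells and 2-day cultures of WT mice at 6 and 20 months, on the log2(scaled TPM + 1) scale; filled points have an adjusted p below 0.05. All 10 points are filled for the step at 6 months, 4 for the step at 20 months.

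The difference between the 2 steps was itself tested as an interaction, the step at 20 months minus the step at 6 months. Of the 10 genes 5 had a smaller step at 20 months and none a larger one, where 12.6% of all genes had a lower interaction, and the median was -0.66, against 0.01 over all genes. Psmb8 had the largest, -1.43 ± 0.25 (adjusted p = 0.00026), followed by Psmb9 at -1.33 ± 0.34 (adjusted p = 0.00574) and Psmb10 at -1.14 ± 0.39 (adjusted p = 0.0322). All 3 immunoproteasome genes were thus among the 5, with Nlrc5 (-0.97 ± 0.21, adjusted p = 0.00176) and H2-K1 (-0.78 ± 0.26, adjusted p = 0.0301). H2-D1 (-0.46, adjusted p = 0.116), B2m (-0.54, adjusted p = 0.0749), Tap1 (-0.38, adjusted p = 0.292), Tapbp (-0.45, adjusted p = 0.0829) and Tap2 (-0.24, adjusted p = 0.531, with the sign turned to 0.01 on TPM as deposited) were not called.

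Psmb8, Psmb9 and Nlrc5 kept their interaction calls when any 1 library was left out. Those of Psmb10 and H2-K1 did not: without 6-month large-cell library 2 Psmb10 was at -0.59 (adjusted p = 0.0527) and H2-K1 at -0.57 (adjusted p = 0.081). Psmb10 was also lost without any library of the 2-day group at 6 months, 2-day libraries 3 or 4 at 20 months, or large-cell libraries 1 or 4 at 20 months, at -1.12 to -1.18. H2-K1 was also lost without 2-day library 2 at 6 months, 2-day libraries 3 or 4 at 20 months, or large-cell libraries 1 or 3 at 20 months, at -0.71 to -0.78. Without 6-month large-cell library 1, B2m was called too (-0.62, adjusted p = 0.035). With only the 4 groups in the fit 3 genes were called, and with one variance per group 2.

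The same 4 groups can be read along age within a stage. In 2-day cultures all 10 genes had a higher mean at 20 than at 6 months. Of the 10, 5 were called higher and none lower, where 8.54% of all genes were called higher. The median difference was 0.57, against 0.01 over all genes. Psmb8 had 72.4, 93.1 and 76.9 scaled TPM at 20 months, against 42.5, 38.7 and 45.9 at 6 months, a difference of 0.91 ± 0.18 (adjusted p = 0.00108). H2-K1 differed by 0.72 ± 0.18 (adjusted p = 0.00737) and H2-D1 by 0.62 ± 0.15 (adjusted p = 0.00602). Nlrc5 had 9.41, 14.3 and 10.8 scaled TPM at 20 months, against 6.55, 5.75 and 7.67 at 6 months, a difference of 0.70 ± 0.15 (adjusted p = 0.00218). Psmb9 differed by 0.75 ± 0.24 (adjusted p = 0.0326). B2m (0.18), Tap1 (0.49), Tap2 (0.36), Tapbp (0.31) and Psmb10 (0.52) were not called, at adjusted p between 0.0789 and 0.502.

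Psmb9 lost its call without 2-day libraries 1 or 2 at 6 months or 3 or 4 at 20 months (0.62 to 0.76). All 10 genes were called with only these groups in the fit, for which the share of all genes called is not given here. Psmb10 was called as well on TPM as deposited (0.55, adjusted p = 0.0448). B cell markers, at 85.0 to 110 TPM at 20 months and 2.71 to 6.98 TPM at 6 months, differed between these same cultures. Macrophage markers did too, with 4 of 8 called higher and sums of 32929 to 37816 TPM at 20 months, against 19565 to 22362 TPM at 6 months. Of 10 osteoclast markers 6 were called higher at 20 months and of 6 stromal markers 5 lower. The part of these shifts in the class I values was not tested.

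In large cells of WT mice, age moved few of the 10. Between 20 and 6 months 1 was called, lower, where 14.9% of all genes were called lower: Psmb8 had 74.1, 71.3 and 72.6 scaled TPM at 20 months, against 84.5, 130.2 and 103 at 6 months (-0.52 ± 0.18, adjusted p = 0.0359). The groups did not overlap, but the call was lost without 6-month library 2 (-0.36) or 4 (-0.52), or any 1 of the 20-month libraries (-0.50 to -0.53). Psmb9 had -0.59 ± 0.24 (adjusted p = 0.0685) and Psmb10 -0.62 ± 0.27 (adjusted p = 0.0859). Both were called without 6-month library 1 (-0.67 and -0.93) or library 4 (-0.81 and -0.87), and B2m without library 1 (-0.43), so that up to 4 genes were called. On TPM as deposited Psmb8 was not called (-0.23), H2-D1 was called higher (0.45, adjusted p = 0.015) and the median of all genes was 0.27, so the split was 1 higher and 0 lower in place of 0 higher and 1 lower.

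Between 20 months and 1 month 1 of the 10 was called, lower, where 13.0% of all genes were called lower. B2m had 2084, 1780.2 and 2086 scaled TPM at 20 months, against 3905, 2281 and 2218 at 1 month (-0.45 ± 0.16, adjusted p = 0.0415). The 1-month group was spread by its library 1, without which the difference was -0.19 (adjusted p = 0.362), and the call was also lost without any 1 of the 20-month libraries (-0.37 to -0.49). Tapbp was called as well without 1-month library 3 or 4 (-0.45 in both). Between 6 months and 1 month none of the 10 was called by limma, where 9.58% of all genes were called, and 2 had an unadjusted p below 0.05, H2-D1 (-0.36) and Nlrc5 (0.34). Nlrc5 was called without 6-month library 4 (0.47, adjusted p = 0.0464), and H2-D1 on TPM as deposited (-0.52, adjusted p = 0.0158), when the median of all genes was -0.16. These comparisons share the 1-month WT libraries with their female pattern.

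Psmb8, Psmb9 and Psmb10 can be set against the standard subunits whose place they take. In large cells against 2-day cultures at 6 months, Psmb5 differed by 0.37 (adjusted p = 0.171), Psmb6 by 0.80 (adjusted p = 0.00883) and Psmb7 by 0.59 (adjusted p = 0.0228), each less than its inducible counterpart. The large-cell libraries were widely spread for these genes, with SD of 0.75, 0.82 and 0.66 on the log2 scale. At 2 days the SD were 0.09, 0.10 and 0.09. The ratio of TPM within a library, Psmb8 to Psmb5, was 0.335 to 0.613 in large cells, against 0.238 to 0.252 at 2 days. Psmb9 to Psmb6 was 0.0381 to 0.0655 in large cells, against 0.0165 to 0.0219 at 2 days, and Psmb10 to Psmb7 was 0.135 to 0.222, against 0.0868 to 0.104. None of the 3 ratios overlapped between these groups.

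At 20 months the ratios to Psmb7 and Psmb6 did not overlap either, though no inducible subunit was called there. Psmb10 to Psmb7 was 0.237 to 0.272 in large cells, against 0.141 to 0.157 at 2 days, and Psmb9 to Psmb6 was 0.0549 to 0.0593, against 0.0291 to 0.0451. Psmb7 was itself lower in large cells (-0.54, adjusted p = 0.0445), while Psmb5 (-0.47, adjusted p = 0.107) and Psmb6 (-0.12, adjusted p = 0.745) were not called. Psmb8 to Psmb5 was 0.574 to 0.632 in large cells and 0.426 to 0.584 at 2 days, which overlap. Between 20 and 6 months in large cells all 15 standard proteasome genes tested were called lower, where 14.9% of all genes were called lower. Their median was -0.84, with Psmb5 at -0.88, Psmb6 at -0.94 and Psmb7 at -1.23. On the log2 scale the SD of these named genes were 0.75, 0.82 and 0.66 at 6 months, against 0.05, 0.01 and 0.06 at 20 months. The 6-month group includes library 2, the least like its replicates, and how far these calls depend on it was not tested. At 1 month Psmb10 to Psmb7 was 0.174 to 0.217 in unmarked Terc-/- large cells, against 0.146 to 0.173 in WT large cells. At 6 months it was 0.188 to 0.220, within the 0.135 to 0.222 of WT large cells. Psmb8 to Psmb5 went the other way at 1 month, at 0.319 to 0.431 in Terc-/- cells, against 0.455 to 0.518 in WT cells. Psmb9 to Psmb6 overlapped there, at 0.0445 to 0.0618, against 0.0476 to 0.0498. These ratios are descriptions without a test.

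**Figure D3:**
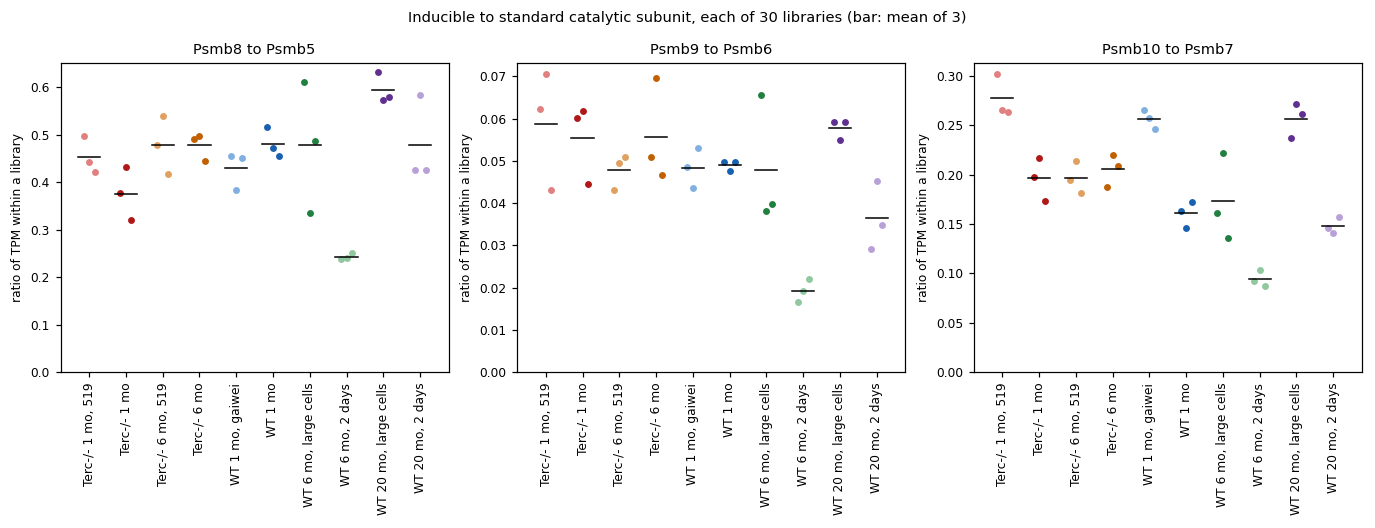
Ratio of inducible to standard proteasome subunit (TPM over TPM within a library, no unit) for Psmb8 to Psmb5, Psmb9 to Psmb6 and Psmb10 to Psmb7; points are libraries, grouped as in the plot of levels by library. The 2-day WT group at 6 months is lowest for all 3 ratios.

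The second comparison asked what loss of Terc does to large osteoclasts at 1 month and 6 months. At 1 month 5 of the 10 genes were called higher in Terc-/- cells and none lower, where 15.4% of all genes were called higher and 15.5% lower. The median difference was 0.40, against 0.00 over all genes. The genes called were both heavy chains and the 3 loading genes.

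H2-D1 had 1287, 1506 and 1015 scaled TPM in Terc-/- cells, against 904, 546 and 546 in WT cells, a difference of 0.95 ± 0.15 (adjusted p = 5.01e-05). H2-K1 had 758, 863 and 626 scaled TPM in Terc-/- cells, against 689, 390.2 and 376 in WT cells, a difference of 0.67 ± 0.18 (adjusted p = 0.00684). WT library 1 was the high one in both cases, and it overlapped the Terc-/- libraries for H2-K1 only. Tap2 had 37.5, 43.9 and 32.0 scaled TPM in Terc-/- cells, against 27.3, 17.8 and 18.8 in WT cells (0.81 ± 0.19, adjusted p = 0.00267). Tap1 had 16.0, 20.9 and 15.1 scaled TPM, against 13.9, 11.2 and 10.7 (0.50 ± 0.19, adjusted p = 0.0467). Tapbp had 207, 175 and 156 scaled TPM in Terc-/- cells, against 156, 102 and 103 in WT cells (0.59 ± 0.13, adjusted p = 0.00162). The transporter genes did not overlap between genotypes, and for Tapbp the lowest Terc-/- library and WT library 1 were equal to 3 digits.

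The light chain, the immunoproteasome and Nlrc5 did not pass at 1 month. B2m had 3098, 3223 and 2719.9 scaled TPM in Terc-/- cells, against 3905, 2281 and 2218 in WT cells (0.15 ± 0.16, adjusted p = 0.493). Psmb8 differed by 0.12 (adjusted p = 0.649), Psmb9 by 0.30 (adjusted p = 0.371), Psmb10 by 0.16 (adjusted p = 0.697) and Nlrc5 by 0.22 (adjusted p = 0.276). Psmb5, Psmb6 and Psmb7 were not called either, at 0.49, 0.15 and -0.12. The ratio of H2-K1 to H2-D1 in a library was 0.573 to 0.617 in Terc-/- cells, below every other group, against 0.690 to 0.762 in WT cells, a description of 2 near-identical genes.

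Without WT library 3 or 4, 3 genes were called in place of 5, since H2-K1 (0.54 and 0.52) and Tap1 (0.46 and 0.43) were lost. Tap1 was also lost without Terc-/- library 1 (0.55) or 3 (0.36) and on TPM as deposited (0.47, adjusted p = 0.145), and without WT library 1 B2m was called (0.42, adjusted p = 0.0113). With only these groups in the fit 2 genes were called. Stromal markers summed to 112 to 211 TPM in Terc-/- cells, against 582 to 2665 TPM in WT cells, and macrophage markers to 39740 to 43876 TPM, against 24543 to 30290 TPM, with 4 of 8 called higher and 1 lower. Their part in the result was not tested.

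The 519-marked Terc-/- and gaiwei-marked WT libraries give a second 1-month comparison, between sets that both lack the Xist pattern. Here none of the 10 was called by limma and none had an unadjusted p below 0.05, where 3.45% of all genes were called. H2-K1 had 1072, 1191 and 1022 scaled TPM in marked Terc-/- cells, against 1027, 1034 and 868 in marked WT cells (0.17). H2-D1 had 1360.3, 1504 and 1340.2, against 1311, 1394 and 1144 (0.13), and the groups overlapped for both heavy chains. The other 8 genes lay between -0.14 (B2m and Nlrc5) and 0.34 (Psmb9), and Tap1 turned its sign to -0.02. Whether the 2 marks denote matched cultures is not stated.

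At 6 months 6 of the 10 were called higher in Terc-/- cells and none lower, where 15.7% of all genes were called higher and 13.1% lower. The median difference was 0.48, against 0.02 over all genes. H2-D1 had 1039.6, 976 and 1042 scaled TPM in Terc-/- cells, against 526, 525 and 462 in WT cells, a difference of 1.02 ± 0.15 (adjusted p = 3.13e-05). H2-K1 had 737, 729.9 and 777 scaled TPM in Terc-/- cells, against 463, 632 and 372 in WT cells (0.65 ± 0.18, adjusted p = 0.00982). All Terc-/- libraries lay above all WT libraries for both heavy chains. B2m had 3354, 3273 and 3849.6 scaled TPM in Terc-/- cells, against 2294, 2798 and 2548 in WT cells (0.46 ± 0.16, adjusted p = 0.0316), again without overlap.

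Tapbp had 169, 206 and 158 scaled TPM in Terc-/- cells, against 97.8, 117 and 92.3 in WT cells (0.79 ± 0.13, adjusted p = 0.000119), without overlap. Nlrc5 had 15.2, 18.0 and 15.9 scaled TPM in Terc-/- cells, against 11.5, 13.3 and 9.05 in WT cells (0.51 ± 0.15, adjusted p = 0.0121), also apart. Tap2 had 41.8, 38.0 and 25.2 scaled TPM, against 20.2, 32.3 and 17.2, with overlap (0.59 ± 0.19, adjusted p = 0.0261). Tap1 (0.19, adjusted p = 0.481), Psmb8 (0.21, adjusted p = 0.405) and Psmb9 (-0.02, adjusted p = 0.969, and 0.11 on TPM as deposited) were not called. Psmb10 had 43.6, 45.1 and 42.3 scaled TPM in Terc-/- cells, against 30.7, 103 and 33.1 in WT cells, and its difference of -0.11 (adjusted p = 0.785) turned to 0.44 (adjusted p = 0.0429) without WT library 2 and to 0.02 on TPM as deposited. Psmb5, Psmb6 and Psmb7 differed by 0.17, -0.26 and -0.39 and were not called.

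These 6-month calls rest on the pooled spread. With only the groups compared in the fit none of the 10 passed, without WT library 2 in such a fit 3 did, and with one variance per group 1 did. Without WT library 4, 2 of the 10 were called, H2-K1 (0.47), B2m (0.46), Tap2 (0.40) and Nlrc5 (0.38) being lost. B2m was also lost without Terc-/- library 1 or 4 or WT library 1 (0.38 to 0.48), Tap2 without Terc-/- library 1 or 2 or WT library 1 (0.45 to 0.52), and Nlrc5 without Terc-/- library 2 (0.45). H2-D1 and Tapbp were called with every library left out. Stromal markers summed to 274 to 929 TPM in Terc-/- cells, against 662 to 1155 TPM in WT cells, and macrophage markers to 36963 to 44260 TPM, against 19791 to 28465 TPM, and their part was not tested.

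**Figure D4:**
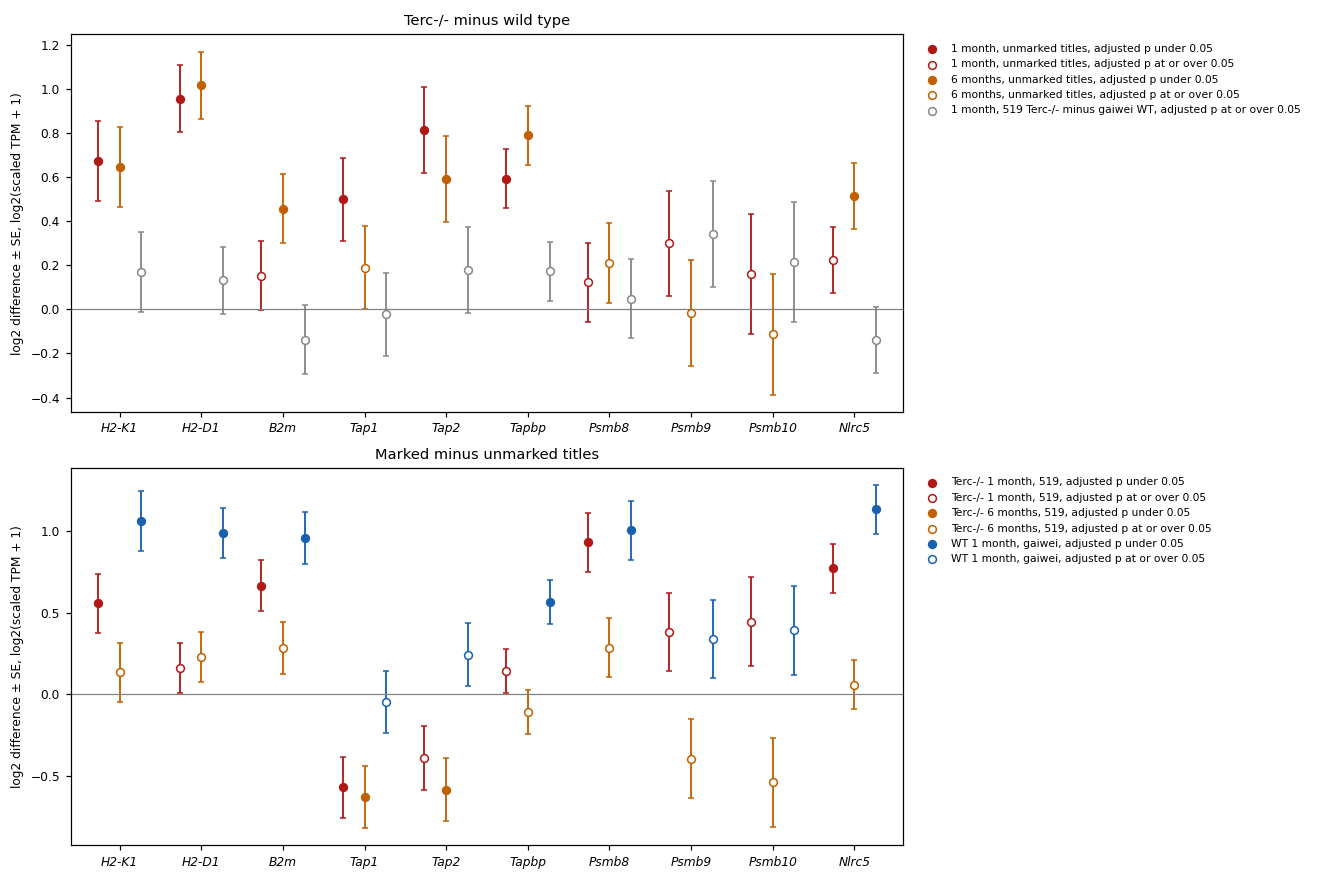
Log2 difference (± standard error, n = 3 libraries per group) of the 10 genes between Terc-/- and WT large cells (upper panel, with 519-marked Terc-/- minus gaiwei-marked WT in grey) and between marked and unmarked libraries of one genotype and age (lower panel); filled points have an adjusted p below 0.05. H2-D1 is filled at both ages of the unmarked comparison, and none of the grey differences passed.

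The genotype difference at 6 months was not shown to differ from that at 1 month. None of the 10 had a called interaction and none had an unadjusted p below 0.05 in limma, where 3.58% of all genes were called, and the median was 0.02. Along age within Terc-/- cells, 1 of the 10 was called higher at 6 months than at 1 month, where 2.93% of all genes were called higher. Nlrc5 had 15.2, 18.0 and 15.9 scaled TPM at 6 months, against 11.8, 10.2 and 8.84 at 1 month (0.63 ± 0.15, adjusted p = 0.0135), without overlap. It lost its call without 1-month library 3 or 4 or 6-month library 2 or 4 (0.53 to 0.65). In the 519-marked Terc-/- cells 2 were called lower at 6 months, where 11.8% of all genes were called lower. Psmb10 had 28.9, 31.3 and 29.1 scaled TPM at 6 months, against 59.0, 62.1 and 56.1 at 1 month (-0.96 ± 0.27, adjusted p = 0.013). Psmb9 had 11.9, 12.6 and 13.2 scaled TPM at 6 months, against 22.9, 31.4 and 18.5 at 1 month (-0.87 ± 0.24, adjusted p = 0.0114), and was lost without 1-month library 2 (-0.67). With only these 2 groups in the fit 7 genes were called lower.

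The 519 and gaiwei libraries differed from unmarked libraries of the same genotype and age, in ways that depended on the scaling. For gaiwei-marked against unmarked WT at 1 month, 6 of the 10 were called higher, where 24.2% of all genes were called higher and 22.4% lower. Nlrc5 had 22.1, 19.8 and 18.3 scaled TPM in gaiwei libraries, against 8.70, 8.49 and 8.62 in unmarked ones (1.13 ± 0.15, adjusted p = 1.1e-06). H2-K1 (1.06), H2-D1 (0.98), B2m (0.96), Psmb8 (1.00) and Tapbp (0.56) were also higher, while Tap1 (-0.05), Tap2 (0.24), Psmb9 (0.34) and Psmb10 (0.39) were not called, and the signs of Tap2 (-0.29), Psmb9 (-0.19) and Psmb10 (-0.16) turned on TPM as deposited. On TPM as deposited the median of all genes was -0.49, Tapbp was at 0.00 and not called, and Tap1 was called lower (-0.56), so that the split was 5 higher and 1 lower in place of 6 higher and 0 lower.

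For 519-marked against unmarked Terc-/- at 1 month, 4 were called higher and 1 lower, where 18.5% of all genes were called higher and 15.1% lower. Psmb8 had 182, 221 and 179 scaled TPM in 519 libraries, against 102, 127 and 79.0 in unmarked ones (0.93 ± 0.18, adjusted p = 0.000254). Nlrc5 had 18.8, 17.0 and 18.5 scaled TPM, against 11.8, 10.2 and 8.84 (0.77 ± 0.15, adjusted p = 0.000257). B2m (0.66) and H2-K1 (0.56) were also called higher. Tap1 had 13.6, 12.3 and 8.43 scaled TPM in 519 libraries, against 16.0, 20.9 and 15.1 in unmarked ones (-0.57 ± 0.19, adjusted p = 0.0218), and the groups did not overlap. On TPM as deposited the median of all genes was -0.39 and the split was 1 higher (Psmb8, 0.46) and 3 lower (Tap1 at -0.999, Tap2 at -0.84 and Tapbp at -0.33), Tapbp having turned its sign from 0.14. H2-D1 also turned, with 0.16 on scaled and -0.31 on deposited TPM, as did Psmb9 (0.38 and -0.07) and Psmb10 (0.44 and -0.02). H2-K1 lost its call without 519 library 2 (0.49) or unmarked library 4 (0.43), and Tap1 without 519 library 3 (-0.38) or unmarked library 3 (-0.43).

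At 6 months 2 of the 10 were called lower in 519 than in unmarked Terc-/- libraries, where 13.8% of all genes were called lower: Tap1 (-0.63 ± 0.19, adjusted p = 0.0134) and Tap2 (-0.58 ± 0.19, adjusted p = 0.0271). Tap1 had 8.94, 11.6 and 10.4 scaled TPM in 519 libraries, against 18.2, 18.2 and 13.3 in unmarked ones. Tap1 was lost without 519 library 1 or unmarked library 1 or 2 (-0.54 to -0.56), and Tap2 without 519 library 2 or 3 or unmarked library 1 or 2 (-0.44 to -0.56), so that from 0 to 2 were called. On TPM as deposited, with a median of all genes of -0.26, 5 were called lower. In all 3 comparisons 9 or 10 of the 10 osteoclast markers were called lower in marked libraries, beside their high S100a8. The part of either was not tested.

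Other lists of the pathway and of the type I interferon response were set beside the 10 genes. No separate list of genes induced by interferon gamma is reported here. The type I list therefore does not show whether such genes moved with the 10. Of 16 genes induced by type I interferon, 15 were called higher in large cells than at 2 days at 6 months, with a median of 2.00, and 13 at 20 months, with a median of 1.81. The class II genes, which present peptides from outside the cell, were called higher in 6 of 6 at 6 months (median 5.21) and in 5 of 6, with 1 lower, at 20 months (median 3.02). For comparison, 24.6% of all genes were called higher at 6 months, and 18.7% higher and 17.5% lower at 20 months. Cd74, the class II invariant chain, averaged 401 TPM in large cells and 2.32 TPM at 2 days at 6 months (7.18 ± 0.38, adjusted p = 9.08e-13). Ifi27l2a, induced by interferon, averaged 93.3 TPM in large cells and 6.76 TPM at 2 days (3.86 ± 0.38, adjusted p = 3.43e-08). The 8 markers of dendritic cells, which are rich in class II, summed to 12.3 to 23.8 TPM in large cells, against 5.02 to 6.50 TPM at 2 days, and their part in the class II values was not tested.

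With loss of Terc the lists parted. All 6 class II genes were called lower in Terc-/- than in WT large cells at 1 month, with a median of -2.85, and at 6 months, with a median of -1.96, whereas the class I medians were 0.40 and 0.48. H2-Aa, a class II alpha chain, averaged 6.45 TPM in Terc-/- cells and 115 TPM in WT cells at 1 month (-4.21 ± 0.44, adjusted p = 3e-07). In the marked 1-month libraries the 6 class II genes summed to 89.6 to 97.5 TPM in 519-marked Terc-/- cells. The sum was 78.4 to 82.7 TPM in gaiwei-marked WT cells, so the sum was not lower in Terc-/- cells there. Single genes differed in direction, described without a test. H2-DMb1 (mean 41.2 against 22.1 TPM) and H2-DMa (18.7 against 12.4) were higher in 519-marked cells. H2-Aa (0.500 against 0.756), H2-Ab1 (22.8 against 30.8), H2-Eb1 (0.586 against 0.869) and Cd74 (9.21 against 14.3) were lower. Of the 16 type I interferon-induced genes 1 was called higher and 1 lower at 1 month, and 5 higher and none lower at 6 months. Over all genes 15.4% were called higher and 15.5% lower at 1 month, and 15.7% and 13.1% at 6 months, so the 1-month counts lay below these shares. Of 14 class I regulators 8 were called higher and 1 lower in Terc-/- cells at 6 months. For some of the 14 the WT libraries were widely spread. Nfya ran from 13.6 to 71.5 TPM in WT cells, against 57.8 to 68.6 TPM in Terc-/- cells. Irf2 ran from 5.45 to 26.6 TPM, against 19.3 to 27.7 TPM. How far these counts depend on single libraries was not tested.

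In marked libraries most type I interferon-induced genes were called lower, while none of the class I heavy and light chains was. In the gaiwei comparison 15 of 16 were called lower and 1 higher, with a median of -2.08, where 22.4% of all genes were called lower, and in the 519 comparisons 14 lower and 1 higher at 1 month (median -1.34) and 15 lower and none higher at 6 months (median -2.14). Ifit3, an interferon-induced gene, averaged 1.06 TPM in gaiwei libraries and 30.7 TPM in unmarked WT libraries (-3.69, adjusted p = 4.24e-09). Irf8, a transcription factor of macrophages and dendritic cells that also acts on class I genes, averaged 95.3 TPM in gaiwei libraries and 41.2 TPM in unmarked ones (1.75, adjusted p = 2.57e-12). Socs1, which dampens interferon signals, averaged 39.0 TPM and 0.997 TPM (4.76, adjusted p = 7.09e-13).

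Lists closer to the 10 genes moved less evenly. Of 10 nonclassical class I genes tested, 6 were called higher and 1 lower in large cells against 2 days at either age. Their medians were 0.50 at 6 months and 0.41 at 20 months. Among all genes 24.6% were called higher and 25.1% lower at 6 months, and 18.7% and 17.5% at 20 months. H2-T23, which encodes the nonclassical molecule Qa-1, averaged 64.8 TPM in large cells and 22.6 TPM at 2 days at 6 months (1.82 ± 0.14, adjusted p = 7.2e-10). Both genes of the inducible proteasome activator rose there: Psme1 averaged 141 TPM in large cells and 76.7 TPM at 2 days (1.25, adjusted p = 8.02e-06), and Psme2 216 TPM and 111 TPM (1.28, adjusted p = 0.000229). Of 10 loading and trimming genes 4 were called lower and none higher in Terc-/- against WT cells at 1 month, among them Pdia3, a disulfide isomerase of the loading complex, with 334 TPM in Terc-/- cells and 573 TPM in WT cells (-0.74, adjusted p = 2.45e-05), and Calr, the chaperone calreticulin (-0.58, adjusted p = 0.002), where 15.5% of all genes were called lower. At 6 months 3 of them were called lower and 1 higher, with Calr at -0.72 (adjusted p = 0.0003), where 13.1% of all genes were called lower.

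**Figure D5:**
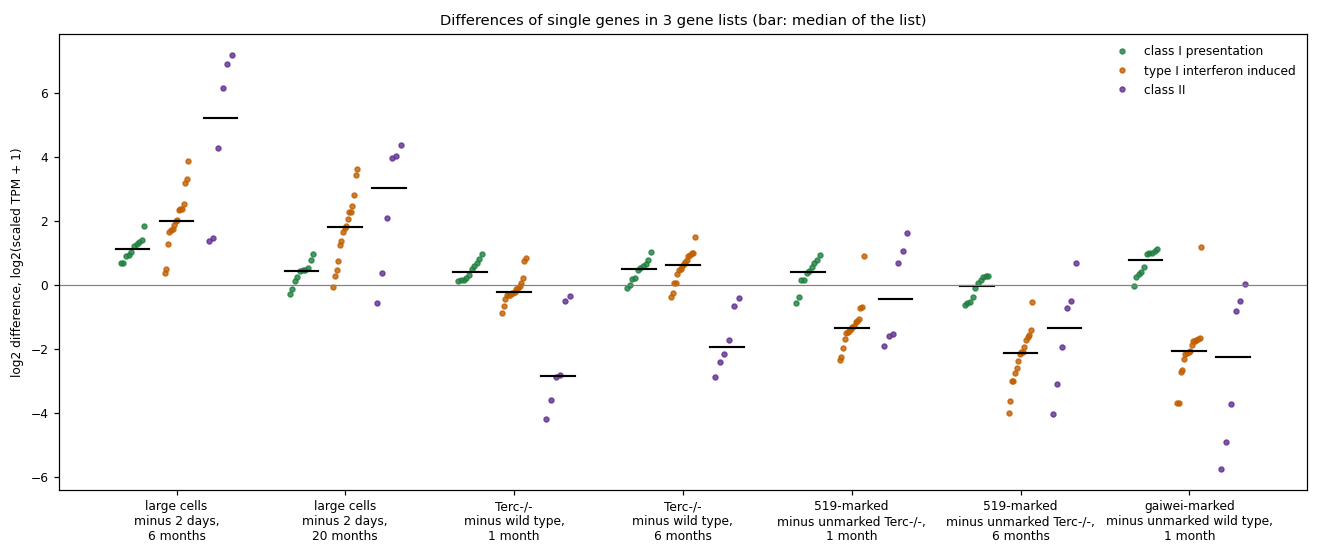
Log2 differences of single genes (points) in the class I list (10 genes), the type I interferon-induced list (16 genes) and the class II list (6 genes) for 7 comparisons; bars are medians. Class I and class II medians lie on opposite sides of 0 for Terc-/- against WT at both ages, and all 3 medians lie above 0 for large cells against 2 days.

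Across the 30 libraries the 10 genes varied together to different degrees, described here without a test because libraries share their scaling and groups. On log2 of (scaled TPM + 1), H2-K1 had a Pearson correlation of 0.977 with the mean of the other 9, Tapbp 0.955, H2-D1 0.935, Psmb9 0.924 and Psmb8 0.905. B2m had 0.878, Tap2 0.830, Psmb10 0.825 and Nlrc5 0.743, and Tap1 was the least alike at 0.595. Of the 45 pairs 23 exceeded 0.8, with a median of 0.802, from 0.243 for Tap1 and Nlrc5 to 0.973 for H2-K1 and H2-D1, whose shared reads may raise that value. Outside the list, of 9279 genes that averaged 5 TPM or more, the 8 most alike to the mean of all 10 were Grn (0.987), Dok3 (0.986), Fes (0.976), Slc25a11 (0.975), Slc27a1 (0.973), Ctsz (0.972), Sh3bgrl3 (0.970) and Cyth4 (0.970).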

How the data were processed

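RNA was sequenced from oligo(dT)-purified libraries on an Illumina platform, per the labels' protocols. The deposited tables hold 45706 genes in 30 libraries as TPM. The file headers name no unit, so TPM was judged from the values, since each column sums to 1000000.0. HTSeq and mm10 are named without versions, per the submitters' processing notes. Of the gene IDs 45143 matched GENCODE M21 and 563 did not. No libraries were identical.

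TPM were divided by an unweighted trimmed-mean factor (dropping 30% of the log ratios and 5% of the levels at either end) and tested as log2(scaled TPM + 1), a scale that understates changes of low genes. The test was limma 3.58.1 in R 4.3.3 (10 group means, trend and robust eBayes, Benjamini-Hochberg adjustment over 12614 genes per comparison). Python 3.11.15 was used for the rest. Read depth is unknown. The code was tested on simulated data.

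The 10 genes, gene lists, markers and tests were chosen with earlier results of these data known. The 10 genes and Psmb5, Psmb6 and Psmb7 were always named, with up to 3 genes of smallest adjusted p per list and comparison and the 8 genes most alike. Same-numbered libraries deviated together with correlations from -0.60 to 0.33, so title numbers were not used as pairs. Promoters come from RefSeq. Alternatives are given below. Some genes picked by this rule are not reported here, and raw reads were not analysed here.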

Additional observations from a re-analysis of the deposited data

Results flagged for a closer look

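For 5 of the 10 genes the step between large cells and 2-day cultures of wild-type mice differed between 20 and 6 months by a test of the difference itself (limma interaction, adjusted over all genes). The difference of the steps, 20 minus 6 months on the log2 scale, was -1.43 for Psmb8, -1.33 for Psmb9, -1.14 for Psmb10, -0.97 for Nlrc5 and -0.78 for H2-K1. Without 6-month large-cell library 2, Psmb10 was at -0.59 (adjusted p = 0.0527) and H2-K1 at -0.57 (adjusted p = 0.081) in limma, and both also lost their calls when any of several other single libraries was left out. In each of these genes the 2-day cultures were higher at 20 than at 6 months, and for Psmb8 and Nlrc5 the 20-month step itself was at -0.14 and -0.29.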

How the results depend on the processing

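Values below are numbers of the 10 genes called. The share of all genes called under each alternative is not given here, so a higher count is not shown to be particular to the 10. The step from 2 days to large cells at 6 months gave 10 with each library left out, and the gaiwei comparison 6. Leaving out 1 library at a time gave 3 to 6 for Terc-/- against wild type at 1 month, 2 to 7 at 6 months, 0 to 1 for wild type at 6 against 1 month, 0 to 2 at 20 months against 1 month and 0 to 4 at 20 against 6 months. It gave 0 to 1 for Terc-/- at 6 months against 1 month, 1 to 2 for 519-marked Terc-/- at these ages, 2 to 4 for the 20-month step, 4 to 5 for 2-day cultures at 20 against 6 months, 4 to 5 for 519-marked against unmarked Terc-/- at 1 month, 0 to 2 at 6 months, 3 to 6 for the interaction of step and age and 0 to 0 for that of genotype and age.

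With only the groups compared in the fit, the counts were 2 and 0 for Terc-/- against wild type at 1 and 6 months, 0 for wild type at 20 months against 1 or 6 months, 0 for Terc-/- at 6 months against 1 month, 7 for 519-marked Terc-/- at these ages, 7 for the 20-month step, 10 for 2-day cultures, 7 for the 519 comparison at 6 months (3 higher, 4 lower) and 3 for the interaction. Without 6-month large-cell library 2 as well, they were 3 for the 6-month genotype comparison, 0 for wild type at 20 against 6 months and 8 for the interaction. One variance per group, chosen after seeing the data, gave 1 for the 6-month genotype comparison, 0 for wild type at 20 against 6 months, 6 for 519-marked Terc-/- by age, 7 for the 20-month step, 9 for 2-day cultures and 2 for the interaction. Without the filter on low values the count was 0 for wild type at 20 months against 1 or 6 months and 1 for the 519 comparison at 6 months. TPM as deposited gave 1 for wild type at 6 months against 1 month and 5 for the 519 comparison at 6 months, and median-ratio scaling gave 0 for wild type at 20 months against 1 month. Marked libraries in place of unmarked ones gave 0 for the 1-month genotype comparison.

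The title numbers did not pair the libraries. With a replicate block, wild type at 20 months gave 0 against 1 or 6 months, 2-day cultures gave 8, and no other count moved by over 1.5 times. Signs of differences described in the report turned, among others, in Tap1 for genotype at 1 month with marked libraries (-0.023), Psmb10 for genotype at 6 months without wild-type large-cell replicate 2 (0.44; range with any library left out -0.42 to 0.44) and Tapbp for the 519 comparison at 1 month on TPM as deposited (-0.33). On TPM as deposited, further uncalled differences turned, among them those of B2m in the 20-month step, Tap2 in the interaction, Psmb9 and Psmb10 for genotype at 6 months, H2-D1, Psmb9 and Psmb10 for the 519 comparison at 1 month, and Tap2, Psmb9 and Psmb10 for the gaiwei comparison. The cause of these shifts was not tested. Among the values of single genes, 946 of 1020 stayed on their side of the threshold with a library left out. With a pseudocount of 0.1, 149 of 150 did, and on TPM as deposited 132 of 150. Called values among these also kept their sign, while a turned sign was not counted where a value was uncalled in both fits. With 3 libraries a group and no read depth, a difference that missed the threshold is not shown to be absent.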
